A study of Mus musculus with 8 samples.

Results

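The nuclei described here carry the deposited cell type label inhibitory neurons 14 (spelled "inhibtory" in the files) and are called cluster 14. Every nucleus with this label was taken, with no further selection, which gave 519 of 29425 nuclei (1.76%) in 21 deposited clusters. Mutant mouse 1 contributed 64 of them, mutant mouse 2 contributed 250, control mouse 1 contributed 82 and control mouse 2 contributed 123. The transcripts that set these nuclei apart, Ranbp3l, Ptgds, Slc6a20a and Slc6a13, are known from the meninges, and those of inhibitory neurons were low, so the nuclei are referred to as meninges-like.

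The study compared adult hippocampi of Wls fl/-;Gfap-Cre mice, called mutant, with those of Wls fl/+;Gfap-Cre mice, called control, by snRNAseq and by bulk RNAseq, with 2 mice of each genotype for each method. Wls codes for Wntless, the chaperone that carries Wnt ligands to the cell surface. All mice carried Gfap-Cre, a transgene in which the Gfap promoter drives Cre in part of the cortical progenitors. The mutants carried a null Wls allele in every cell beside the floxed allele, and the controls carried a wild type allele beside the floxed allele, so the genotypes differed in all cells and not only where Cre was active. According to the methods the mice were male and 12 weeks old, and each snRNAseq sample held both hippocampi of a single mouse.

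The meninges are the membranes that cover the brain, and they consist of the dura, the arachnoid and the pia, which follows the brain surface into its fissures. Their fibroblasts lay down collagens and laminins, make retinoic acid, secrete signals such as Cxcl12 and bone morphogenetic proteins, and form a barrier and transport layer around the cerebrospinal fluid. Solute carriers for amino acids, organic anions and dicarboxylates are typical of the arachnoid and pial layers, and prostaglandin D synthase, the product of Ptgds, is among their most abundant secreted proteins.

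Of the 4 marker genes, Ranbp3l, which codes for a Ran-binding protein that exports Smad proteins from the nucleus, lies at chr15:8967949-9067335 on the plus strand (GRCm38). Ptgds lies at chr2:25466709-25470046 on the minus strand, Slc6a20a, an imino acid carrier, at chr9:123634770-123678885 on the minus strand, and Slc6a13, a carrier of GABA and taurine, at chr6:121300227-121337733 on the plus strand. The next gene after Slc6a13 was Slc6a12, the betaine and GABA carrier, on the same strand with 5342 bases and 0 genes between them, and both were among the leading genes of cluster 14. The sequences before the start of 3 markers are shown because their transcripts were found together in the same nuclei. They are from RefSeq on GRCm38.p6, read 5′ to 3′ on the strand of the gene, taken from the 250 bases before the start and cut where the GENCODE gene begins, and capitals mark a GC box (GGGCGG, or CCGCCC on the other strand). For Ptgds the whole window fell inside the annotated gene, and none is shown.
Ranbp3l, chr15:8967699-8967948, plus strand, 250 bases: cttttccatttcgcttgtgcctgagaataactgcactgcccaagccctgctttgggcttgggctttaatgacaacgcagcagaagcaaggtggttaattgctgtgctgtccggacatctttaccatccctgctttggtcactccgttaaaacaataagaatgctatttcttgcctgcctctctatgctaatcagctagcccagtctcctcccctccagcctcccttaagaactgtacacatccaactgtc
Slc6a20a, chr9:123678886-123679082, minus strand, 197 bases: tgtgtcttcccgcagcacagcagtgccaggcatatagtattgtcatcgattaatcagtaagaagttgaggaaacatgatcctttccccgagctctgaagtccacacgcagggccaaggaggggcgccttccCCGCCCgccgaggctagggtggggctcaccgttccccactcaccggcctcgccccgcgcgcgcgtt
Slc6a13, chr6:121300038-121300226, plus strand, 189 bases: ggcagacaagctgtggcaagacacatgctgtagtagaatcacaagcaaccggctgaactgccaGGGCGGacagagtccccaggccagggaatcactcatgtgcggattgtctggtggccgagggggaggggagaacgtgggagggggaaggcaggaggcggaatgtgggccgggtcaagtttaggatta

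The Ranbp3l stretch held 48.8% G and C and no GC box, and those of Slc6a20a and Slc6a13 held 61.4% and 59.8% and 1 GC box each. Of 6 short motifs looked for on both strands, the GC box stood in 32.7% of all 32851 promoter windows of 250 bases and in 28.2% of the 39 windows of the 27 leading genes that matched the table. The forkhead letters GTAAACA stood in 3.17% of all windows and 2.56% of those of leading genes, the LEF/TCF letters CTTTGAT in 3.21% and 2.56%, and the ZIC letters CAGCAGG in 8.44% and 0%. The letters TATAAA stood in 12.4% and 7.69%, and CCAAT in 33.8% and 20.5%. A match of letters is a description and not a binding site.

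Cluster 14 nuclei were shallow, with a median of 2287 UMIs against 5892.5 in the other nuclei, and the medians in the 4 mice ranged from 1863.5 to 2604. The files hold no nucleus under 1500 UMIs. Transcript levels are given as UPM, the UMIs of a gene divided by the UMI total of the cluster in that mouse and scaled as CPM values are, and rest on 155107 to 851465 UMIs of cluster 14 per mouse. Of the nucleus barcodes, 87 occurred in more than 1 library, and 5 of them were in cluster 14. Doublet calling with Scrublet marked 699, 161 and 234 nuclei in mutant mouse 2, control mouse 1 and control mouse 2, of which 28, 2 and 9 were in cluster 14, but it marked 1 of 5304 nuclei in mutant mouse 1 and so did not work there. In the nuclei outside cluster 14, Wls stood at 5.93 and 9.66 UPM in the mutants and at 17.8 and 23.7 UPM in the controls, in the direction that the genotype labels give. UMIs count the end of a transcript, and the sources used here do not say whether the null allele still makes it.

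All 4 markers were higher in cluster 14 than in any other deposited cluster. Ptgds stood at 11476 UPM in mutant mouse 1, 4704 in mutant mouse 2, 25801 in control mouse 1 and 17899 in control mouse 2. Ranbp3l stood at 2727, 1804, 2246 and 2653 UPM in the same order, Slc6a20a at 1238, 1003, 2127 and 2040 UPM, and Slc6a13 at 696, 537, 878 and 862 UPM. Cluster 14 held 1.21 to 2.39% of the nuclei of a mouse, but its share of the UMIs of a gene was 45.6 to 61.8% for Ranbp3l, 53.6 to 64.0% for Ptgds, 69.5 to 82.8% for Slc6a20a and 77.6 to 85.0% for Slc6a13. After each nucleus was thinned to 1500 UMIs, Ptgds was seen in 72.4 to 90.2% of cluster 14 nuclei and in 1.72 to 4.89% of CA1 pyramidal nuclei, which should lack it and whose unthinned depth was higher (median 8720 UMIs). Slc6a13 was seen in 54.8 to 72.0% of the thinned nuclei of cluster 14 and in 0 to 0.224% of those of CA1. Without thinning, these shares were 74.8 to 92.2% and 8.74 to 24.7% for Ptgds and 64.8 to 80.5% and 0.259 to 0.822% for Slc6a13. All 4 markers were detected in 298 of the 519 nuclei (57.4%), 3 in 100, 2 in 35, 1 in 44 and none in 42 (8.09%).

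The transcripts of inhibitory neurons went against the deposited label. The 14 genes of the inhibitory list summed to 1122 UPM in cluster 14, against 8493, 15961 and 16814 UPM in the inhibitory clusters 5, 12 and 18, and 11 of the 14 were lower in cluster 14 than in each of those. Gad1, a GABA-synthesising enzyme, stood at 6.45, 27.0, 17.1 and 31.9 UPM in the 4 mice in the order above, and at 271 UPM in clusters 5, 12 and 18 together. Gad2, the other such enzyme, stood at 19.3 to 43.9 UPM against 370 UPM. In thinned nuclei Gad1 was seen in 1.56 to 5.69% of cluster 14 and in 0.927 to 1.16% of CA1 nuclei, which should lack it, but in 22.6 to 29.7% of cluster 5. All 8 pan-neuronal genes, such as Snap25 and Rbfox3, were lower in cluster 14 than in each of those inhibitory clusters, with sums of 5376 against 31863 to 42341 UPM.

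**Figure D1:**
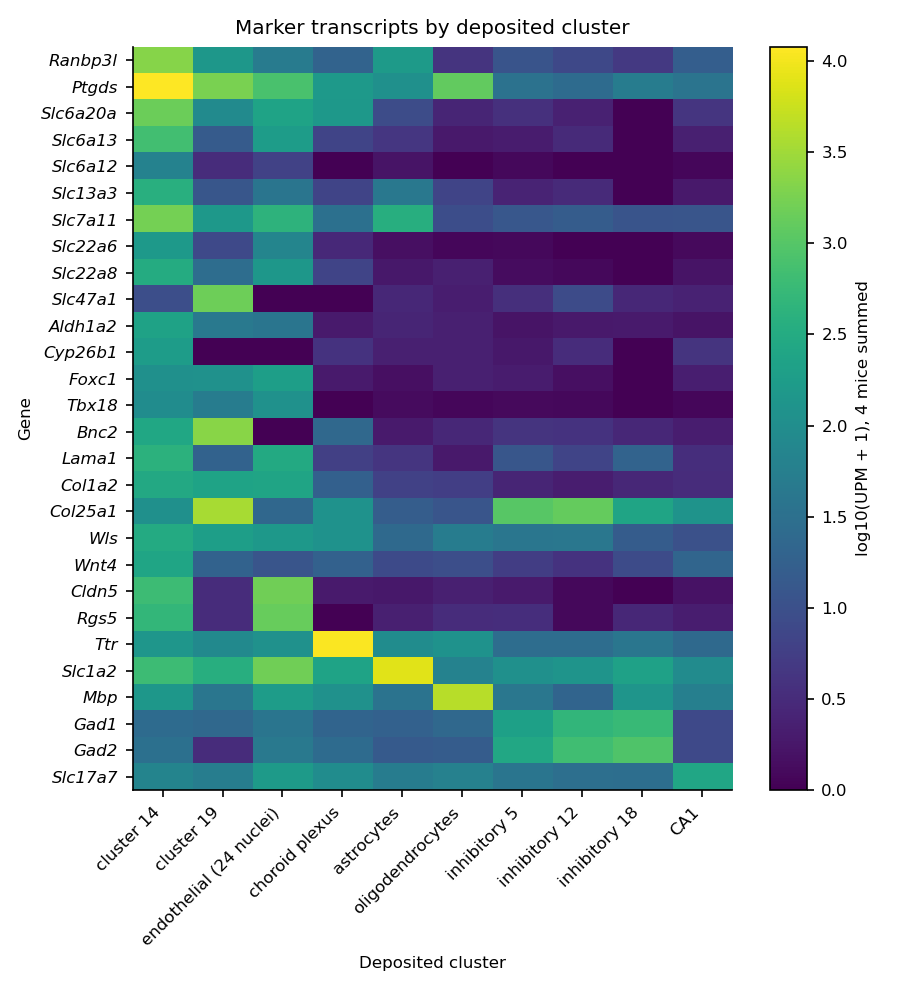
Transcript levels of selected list genes (rows) in cluster 14 and in 9 other deposited clusters (columns), with the UMIs of all 4 mice summed and the colour giving log10 of UPM plus 1. Ranbp3l, Ptgds and the Slc6 carriers are brightest in the cluster 14 column, Gad1 and Gad2 in the inhibitory columns, and Slc47a1 and Bnc2 in the cluster 19 column.

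Solute carriers formed 1 group among the genes that marked cluster 14. Of 30 membrane transporters listed, 12 were higher in cluster 14 than in every other deposited cluster. Besides the markers, these included Slc7a11, the cystine and glutamate exchanger. Slc7a11 stood at 1554, 1413, 1991 and 2110 UPM in the 4 mice, against 429 UPM in the 24 endothelial nuclei, the next highest. Slc13a3, a dicarboxylate carrier, stood at 379 UPM against 41.5 UPM in astrocytes. Slc13a4, a sulfate carrier, stood at 546 UPM against 335 UPM in the choroid plexus cluster. The organic anion carriers Slc22a8 and Slc22a6, neighbours on chromosome 19 with 6203 bases between them, stood at 323 and 159 UPM, against 141 and 70.6 UPM in the endothelial nuclei.

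Some genes of retinoid and prostaglandin metabolism were also highest in cluster 14. Aldh1a2, which makes retinoic acid, stood at 309, 214, 171 and 230 UPM in the 4 mice, against 43.8 UPM in the next cluster. Cyp26b1, which breaks retinoic acid down, stood at 258, 171, 183 and 160 UPM, against 22.1 UPM in the next cluster. These 2 were among 5 of 19 retinoid genes that were highest in cluster 14. Rbp4 and Rdh10, also among the 5, stood close to the next cluster, at 115 against 113 UPM and 29.3 against 25.4 UPM. Of 13 genes of the prostaglandin list, only Ptgds and the receptor gene Ptgfr were highest there. Ptgfr stood at 18.9 UPM against 10.9 UPM in the endothelial nuclei. The cyclooxygenase genes Ptgs1 and Ptgs2, which supply the substrate of the Ptgds product, were at 6.31 and 5.17 UPM.

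Among ligands, Bmp6, a bone morphogenetic protein, stood at 1612, 1594, 1581 and 1453 UPM, against 516 UPM in the choroid plexus cluster. Its levels in the 4 mice lay close together. Wnt4 stood at 213 to 278 UPM and Wnt6 at 64.6 to 120 UPM, against 59.0 and 25.4 UPM in the next clusters. Of 38 genes of the Wnt pathway, 10 were highest in cluster 14. They were Wls itself, the ligands Wnt4, Wnt5a and Wnt6, the receptors Fzd2 and Fzd8, and Axin2, Notum, Sfrp1 and Apcdd1, which restrain the pathway. Fzd8 rested on 7 to 11 UMIs in a mouse. The counts of transporter, retinoid, prostaglandin and Wnt genes highest in cluster 14 have no share over all genes beside them, so they do not show an excess. Igfbp2, an insulin-like growth factor binding protein, stood at 665 UPM and the chemokine Cxcl12 at 366 UPM.

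The 30 leading genes were those with the highest ratio of the level in cluster 14 to that in the next cluster, with 1 UPM added to both, among genes at 50 UPM or more and seen in every mouse. Themis, known for T cell signalling, had the highest ratio, at 20.1, with 97.6 UPM. Ranbp3l followed at 13.1, and Sphk1, a sphingosine kinase, came next. The list held the carriers Slc6a12, Slc6a13, Slc6a20a, Slc7a11, Slc13a3 and Slc16a12, the retinoid enzymes Aldh1a2 and Cyp26b1, the collagen-binding Fmod and Aebp1, and the ligands Wnt4 and Wnt6. The last gene inside the list was Cd74, the class II invariant chain, at a ratio of 3.34, and the first outside was Fibin at 3.24. The next highest cluster was cluster 19 for 10 of the 30, the endothelial nuclei for 8 and astrocytes for 5. Of the 30, 4 are not protein coding, and 11 overlap a gene on the other strand. Gm27151 is one of these and lies antisense within Trpm3, which stood at 12401 UPM, so reads of the 2 genes cannot be told apart unless strand was used in counting.

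Cluster 14 was set beside cluster 19, which is deposited as excitatory neurons 19, has 135 nuclei, and held the highest sum of the wider list of meningeal fibroblast genes. That list of 26 genes summed to 8998 UPM in cluster 14 and 9864 UPM in cluster 19, but its members were divided. Between the clusters within each mouse, 2262 of all 24051 genes listed were higher in cluster 14 in every mouse and 1141 were lower in every mouse. That total includes genes with few or no UMIs. For this list of 26 the counts were 11 and 4. Vtn, vitronectin, stood at 620 to 1068 UPM in cluster 14 and 19.8 to 63.1 UPM in cluster 19. Slc47a1, an organic cation exporter, stood at 4.26 to 10.6 UPM in cluster 14 and 1152 to 1931 UPM in cluster 19. Bnc2, the zinc finger protein basonuclin, stood at 175 to 554 UPM in cluster 14 and 1929 to 2776 UPM in cluster 19. None of these ranges overlapped. They are levels of clusters that were formed from these genes, so they are given without a test.

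The lists of meningeal layers differed in the same way. The arachnoid barrier genes summed to 487 UPM in cluster 14 and 1808 UPM in cluster 19. Of the 7 listed in the files, 6 were lower in cluster 14 in every mouse, beside 1141 of all 24051 genes. Cdh1, E-cadherin of the barrier layer, stood at 8.53 to 96.7 UPM against 218 to 694 UPM. The dural genes summed to 967 against 4916 UPM, and 5 of 8 were lower in every mouse. Mgp, a matrix protein, stood at 77.4 to 361 UPM against 885 to 4708 UPM. The pial genes went the other way, with a sum of 1754 against 1063 UPM, and 7 of 8 were higher in cluster 14 over all mice. Only 2 of them were higher in every mouse, beside 2262 of all 24051 genes. Lama1, a laminin chain of the pial basement membrane, stood at 206 to 565 UPM in cluster 14 and 0 to 29.7 UPM in cluster 19. A level of 0 in these sums of 19 to 64 nuclei per mouse does not show absence.

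The transcription factors showed what the clusters shared. The Zic genes, which code for zinc finger factors of the meninges and hindbrain, stood close together. Zic1 stood at 383 UPM in cluster 14 and 362 UPM in cluster 19, and Zic4, which overlaps Zic1 on the other strand, at 345 and 323 UPM. The 35 factors listed in the files together summed to 5073 UPM in cluster 14 and 11265 UPM in cluster 19, where Foxp2 stood at 1745 UPM against 224 UPM. Foxc1, a forkhead factor of meningeal development, stood at 111 and 115 UPM. Among 34 matrix genes the sums were 6496 and 10894 UPM, with Col25a1, a transmembrane collagen, at 111 and 3454 UPM.

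Transcripts of other cell types were present in cluster 14, and are given here because they bear on every level above. The 8 endothelial genes summed to 2589 UPM, against 4571 UPM in the 24 nuclei deposited as endothelial, and ranged from 1748 to 2943 UPM over the mice. Cldn5, a tight junction protein of endothelium, stood at 387, 712, 222 and 749 UPM. The 9 pericyte and smooth muscle genes summed to 1057 UPM against 7698 UPM in the endothelial nuclei. Much of the latter was Acta2, Myh11 and Tagln, at 3122, 1352 and 1037 UPM there and at most 14.9 UPM in cluster 14. Rgs5, Notch3 and Higd1b were also lower in cluster 14, and Pdgfrb stood at 308 against 320 UPM. Abcc9 and Kcnj8 were higher in cluster 14, at 62.6 and 22.4 UPM against 10.9 UPM for each. The choroid plexus list summed to 13050 UPM against 43689 UPM in the choroid plexus cluster, but 12401 UPM of this was Trpm3, a cation channel. Its defining genes Folr1, Kcne2 and Otx2 were at 1.15, 1.15 and 1.72 UPM, and Ttr, the carrier of thyroxine, was at 0, 214, 72.5 and 75.9 UPM in the 4 mice. The ependymal list summed to 54.5 UPM.

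A nucleus was counted as holding another type's transcripts where at least 3 genes of that list were detected. This was so for 74 nuclei with the endothelial list, and 52 of these had fewer than 2 of the 4 meninges-like markers. It was so for 42 with the pericyte list, 46 with the inhibitory list, 67 with the excitatory list, 141 with the astrocyte list, 34 with the oligodendrocyte list, 29 with the microglia and macrophage list, and 153, the most of any list, with the choroid plexus list, which holds Trpm3. With any of these lists or that of oligodendrocyte precursors it was so for 326 of the 519, which left 193. For the inhibitory list, 42 of the 46 also held at least 2 meninges-like markers, and their median depth was 4738.5 UMIs. Of 56 nuclei above 5000 UMIs, 41 had at least 3 inhibitory or excitatory markers. Of all members, 433 (83.4%) held at least 2 of the 4 markers.

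The nuclei were then clustered among themselves, which gave 9 sub-groups, numbered by size. Their genes and sizes are listed as a description. Sub-group 1, with 155 nuclei, was led by Nespas, Sidt1 and Rcan2, sub-group 2, with 107, by Serpina11, Bnc2 and Nnat, and sub-group 3, with 77, by D630003M21Rik, Eln, which codes for elastin, and Enpp1. Dcn, decorin, stood at 1869 UPM in sub-group 3 and at most 665 UPM elsewhere. Nnat stood at 5223 UPM in sub-group 2 and at most 1157 UPM elsewhere. Sub-group 5, with 36 nuclei, was led by Nat8f7, Apcdd1 and Coch. Coch, a secreted matrix protein, stood at 320 UPM there and at most 90.4 UPM elsewhere. Sub-group 5 held 1 and 0 nuclei of mutant mice 1 and 2 and 14 and 21 of control mice 1 and 2. In the same order sub-group 1 held 25, 101, 11 and 18 nuclei. Sub-group 2 held 22, 35, 22 and 28, and sub-group 3 held 2, 40, 11 and 24. The sub-groups were formed from these transcript levels, and a difference of their sizes between genotypes was not tested.

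The 4 meninges-like markers summed to 42252 UPM in sub-group 2, 35544 UPM in sub-group 5, 15939 UPM in sub-group 1 and 12016 UPM in sub-group 3. They were lowest in sub-group 4, with 55 nuclei, at 1087 UPM. Sub-group 4 had Cyyr1, Abcc9 and Atp10a among its leading genes. Its endothelial genes summed to 12910 UPM, and Cldn5 stood at 3444 UPM, where the other sub-groups held at most 694 UPM. Its pericyte and smooth muscle genes summed to 4259 UPM, against at most 923 UPM in the other sub-groups. Sub-group 6, with 29 nuclei, was led by the neuronal genes Sgcz, Dlgap2 and Grin2a, had a median of 8250 UMIs and held 16 of the doublet calls. Sub-group 7, with 22 nuclei, was led by the leukocyte genes Ptprc, H2-Eb1 and H2-Aa, and its Cd74 stood at 3896 UPM against at most 133 UPM elsewhere. Sub-groups 8 and 9, with 19 nuclei each, were led by oligodendrocyte genes such as Mog and by Pitx1 and Cga, and held 8 and 9 doublet calls. The astrocyte genes summed to 12921 UPM in sub-group 9 and at most 3458 UPM elsewhere, with Slc1a2, a glutamate carrier of astrocytes, at 4064 UPM against at most 1722 UPM. Ptgds ranged from 719 to 33054 UPM over the 9 sub-groups, with 27237 UPM in sub-group 5. Wls ranged from 62.7 to 874 UPM and was highest in sub-group 5.

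Whether the genotypes differed in the number of these nuclei was asked first. Cluster 14 made up 1.21% of the nuclei of mutant mouse 1 (95% exact binomial interval 0.930 to 1.54%), 2.39% in mutant mouse 2 (2.11 to 2.70%), 1.27% in control mouse 1 (1.01 to 1.57%) and 1.71% in control mouse 2 (1.42 to 2.04%). The intervals cover counting error only. Both controls lay between the 2 mutants, so the genotypes overlapped. The means were 1.80% ± 0.837 in mutants and 1.49% ± 0.313 in controls (SD, n = 2 each). The log2 fold change was 0.27 with a standard error of 0.63 and an interval of -0.96 to 1.51 (edgeR's quasi-likelihood test, adjusted p = 0.816 over 21 clusters). The exact two-sided permutation test gave p = 1, and with 2 mice against 2 it cannot go below 0.33.

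This share depends on what it is taken of. The dentate granule cells (DGCs) numbered 90 and 463 in the mutants and 2336 and 2007 in the controls. Over the nuclei other than DGCs, cluster 14 made up 1.23 and 2.50% in the mutants and 1.98 and 2.37% in the controls, and the log2 fold change turned to -0.22 (adjusted p = 0.93). Within the deposited inhibitory clusters it made up 6.23 and 15.1% in mutants and 14.1 and 18.8% in controls. How much of the meninges stayed on a hippocampus during dissection is not given in the sources used here, and cannot be told apart from a difference between mice.

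**Figure D2:**
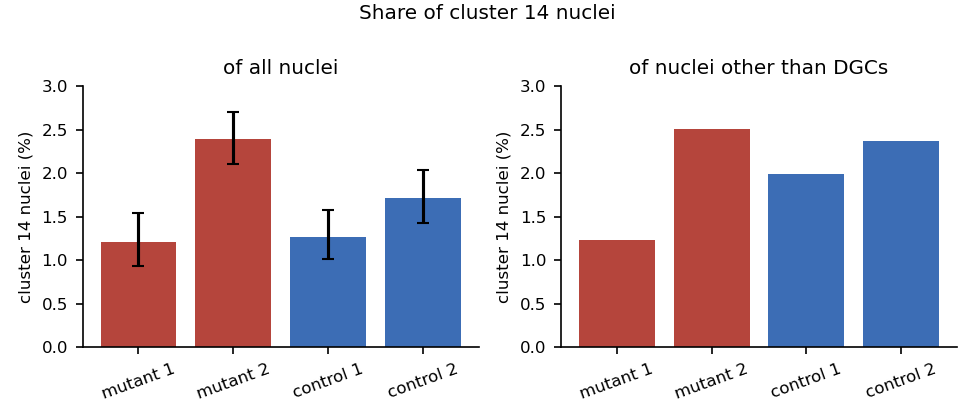
Share of cluster 14 in percent of all nuclei (left, bars with 95% exact binomial intervals) and of the nuclei other than DGCs (right), for each of the 4 mice. On the left the controls, at 1.27 and 1.71%, lie between the mutants, at 1.21 and 2.39%.

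The genotypes were then compared gene by gene within cluster 14, with UMIs summed per mouse. Of 7659 genes tested, 0 passed FC above 2 and FDR below 0.05 in either direction (edgeR), so the share called was 0%. At an unadjusted p below 0.05 there were 428 genes, 217 higher (2.83%) and 211 lower (2.75%), and DESeq2 gave 94 at that level and called none. The smallest adjusted p was 0.726, and the median log2 fold change over all genes was 0.01. Both mutants lay above both controls for 16.1% of genes and below for 19.7%. The count of 0 rested on the filter for low counts, because without it 17 genes were called higher and 19 lower. It also rested on control mouse 1, without which 28 were called higher and 21 lower, on control mouse 2, without which 17 and 10 were, and on mutant mouse 1, without which 1 was called lower.

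Wls had the second smallest p among the genes with a fall. It stood at 181 and 195 UPM in the mutants and at 499 and 471 UPM in the controls, so the genotypes did not overlap. The means were 188 ± 10.2 and 485 ± 19.5 UPM (SD, n = 2 each), and the mutants held 38.7% of the control level. The log2 fold change was -1.33 with a standard error of 0.26 (edgeR, adjusted p = 0.726). It lay between -1.39 and -1.17 under every alternative run, and passed the threshold in 1 of them, without the filter on low counts (adjusted p = 0.0099). Over all alternatives the adjusted p ranged from 0.0099 to 1.00.

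Ptgds, the most abundant marker, stood at 11476 and 4704 UPM in the mutants and 25801 and 17899 UPM in the controls, with no overlap. The means were 8090 ± 4789 and 21850 ± 5588 UPM (SD, n = 2 each), and the log2 fold change was -1.40 with a standard error of 0.44 (edgeR, adjusted p = 0.83). It was -2.21 (adjusted p = 0.010) without mutant mouse 1 and -0.90 (adjusted p = 0.64) without mutant mouse 2. Without the filter on low counts it was -1.46 (adjusted p = 2.6e-04), and over all alternatives the adjusted p ranged from 2.6e-04 to 1.00. Ptgds was lower in both mutants than in both controls in 12 of the 18 clusters that could be compared, and Cst3 and Apoe, other abundant secreted transcripts, in 17 and 12 of 18. In all other nuclei together the mutants held 44.9% of the control level of Ptgds, against 37.0% in cluster 14. The log2 fold change in cluster 14 differed from theirs by -0.49, with a standard error of 0.71. This missed the threshold (edgeR interaction, unadjusted p = 0.49). It does not give the part of the cluster 14 fall that belongs to the shift, and Cst3 and Apoe were not tested in this way. The other markers gave log2 fold changes of -0.87 with a standard error of 0.27 for Slc6a20a (edgeR, adjusted p = 0.83), -0.48 with 0.27 for Slc6a13 (adjusted p = 0.91) and -0.08 for Ranbp3l. Ranbp3l changed sign under 3 alternatives, one of them the selection of 336 nuclei that is described with the lists.

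**Figure D3:**
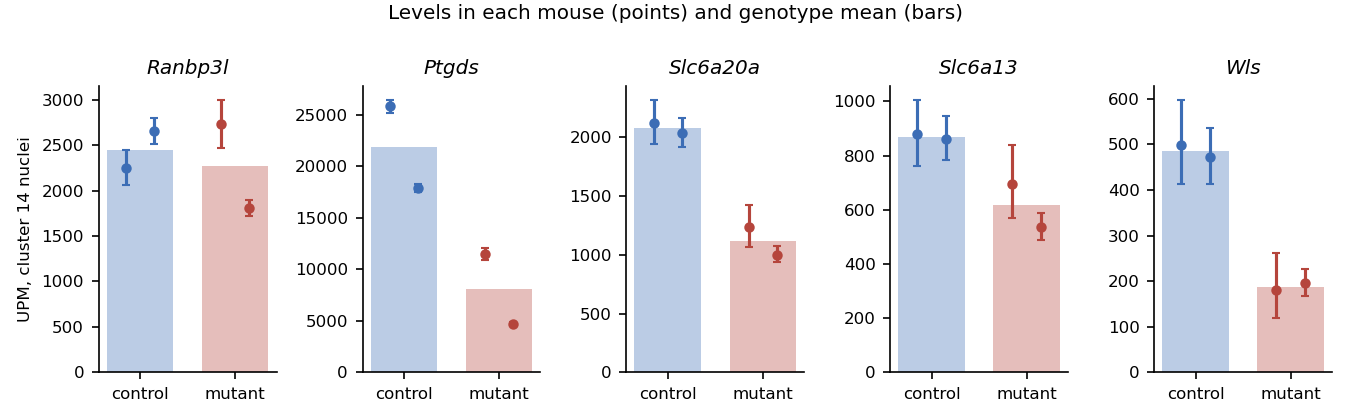
Levels of the 4 markers and Wls in cluster 14 in UPM for each mouse (points, with 95% exact Poisson intervals that cover counting error only) and the mean of each genotype (bars). The Wls points of the mutants, at 181 and 195 UPM, lie below those of the controls, at 499 and 471 UPM, and the Ranbp3l points of the genotypes overlap.

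The other genes with the smallest p are named although none passed. Among falls, Coch stood at 19.3 and 12.9 UPM in the mutants and 111 and 81.8 UPM in the controls, with a log2 fold change of -2.68 and a standard error of 0.43 (edgeR, adjusted p = 0.726). Nat8f7, an acetyltransferase gene, stood at 12.9 and 29.4 against 119 and 85.8 UPM, and Serpinf1, which codes for a secreted serpin, at 6.45 and 24.7 against 68.2 and 120 UPM. Ctsl, the protease cathepsin L, stood at 193 and 161 against 396 and 461 UPM. Coch and Nat8f7 also led sub-group 5, which held 1 and 0 nuclei of the mutants and 14 and 21 of the controls. The part of sub-group 5 in these values and in those of Wls and Ptgds was not tested. Among rises, Npr3, the clearance receptor for natriuretic peptides, stood at 110 and 82.2 UPM in the mutants and 17.1 and 18.0 UPM in the controls, with a log2 fold change of 2.37 and a standard error of 0.41 (edgeR, adjusted p = 0.726). Wdr17 stood at 277 and 462 against 149 and 83.8 UPM. Gm3764, A330015K06Rik and Gm15398 were the other 3, with log2 fold changes of 1.83, 2.47 and 2.60. Gm3764 stood at 1609 UPM in sub-group 9, which was high in astrocyte genes, and at most 240 UPM in the other sub-groups, and the part of that sub-group was not tested.

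The lists are described against the background of 2.75% of genes lower and 2.83% higher at an unadjusted p below 0.05 (edgeR). Among others, the matrix, Wnt and secreted factor lists lay above it for falls, and the transcription factors for rises. These rest on few genes each, and none of them was called. In the wider meningeal list, 24 of 26 genes were tested, 2 were lower and none higher at that level, both mutants lay below both controls for 10 and above for 2 (19.7% and 16.1% of all genes), and the median log2 fold change was -0.15. Those 2 were Lum, lumican, at 12.9 and 42.3 UPM in the mutants and 89.5 and 148 UPM in the controls, and Dcn, at 187 and 324 against 426 and 653 UPM. In the matrix list 31 genes were tested, with a median of -0.14, of which 6 were lower and 2 higher at that level. The 6 were Lum, Spp1, Dcn, Fbln1, Lama1 and Bgn, and the 2 were Nid2 and Lamc3. Lama1 stood at 206 and 351 UPM in the mutants and 448 and 565 UPM in the controls.

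In the Wnt pathway 24 genes were tested, with a median of -0.42, of which 4 were lower and none higher. These were Wls, Nkd1, Apcdd1 and Rspo3, of which Rspo3 overlapped between genotypes. Apcdd1, a Wnt inhibitor, stood at 96.7 and 77.5 UPM in the mutants and 111 and 204 UPM in the controls. The ligand Wnt4 stood at 213 and 278 against 222 and 236 UPM, and the genotypes overlapped. Of 19 secreted factors tested, 4 were lower, Ctgf, Igfbp2, Igfbp4 and Igfbp6. Igfbp2 stood at 503 and 486 UPM against 882 and 916 UPM, with a log2 fold change of -0.83 and a standard error of 0.25 (edgeR, adjusted p = 0.83).

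Of 21 transcription factors tested, 3 were higher and none lower at an unadjusted p below 0.05, and the median was 0.23. They were Tshz2, at 832 and 649 UPM in the mutants against 375 and 443 UPM, Prrx1 and Glis3. Of 25 transporters, 2 were higher (Slc6a9 and Slc6a11) and 2 lower (Slc6a20a and Slc7a14), with a median of -0.05. All 5 immediate early genes tested lay below both controls in both mutants (19.7% of all genes), with a median of -0.81, but of the 5 only Jun was under an unadjusted p of 0.05. Among 19 short abundant transcripts the median was -0.43, and only 1 had a log2 fold change above 0. Of these, 3 were lower (Apoe, Ubb and Cst3) and 0 higher at an unadjusted p below 0.05. Of the 11 retinoid genes tested, only Rbp4, a retinol carrier, was lower at that level, and Aldh1a2 and Cyp26b1 were not. The 17 genes tested of the BMP and TGF-beta list gave none in either direction, and a median of 0.04. The markers of other cell types had a median log2 fold change of 0.12 for 8 endothelial genes, 0.07 for 5 pericyte genes, 0.06 for 7 inhibitory genes, 0.37 for 6 choroid plexus genes and 0.29 for 5 astrocyte genes. Among these lists Notch3 of the pericytes and Htr2c of the choroid plexus were higher at an unadjusted p below 0.05, and their part in the other values was not tested.

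Leaving out every nucleus with 3 or more markers of a neuronal, vascular, oligodendrocyte lineage or microglial list kept 336 nuclei, a choice made after the data were seen. Nuclei with 3 or more astrocyte or choroid plexus genes were kept in it. Of 3592 genes then tested, 0 were called in either direction. The log2 fold change was -1.22 for Wls (edgeR, adjusted p = 0.17) and -1.31 for Ptgds (adjusted p = 0.32), and that of the share was 0.37.

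Wls was higher in cluster 14 than in any of the 17 other clusters that had at least 10 nuclei in every mouse, in both genotypes. In the controls it stood at 471 to 499 UPM in cluster 14, 320 to 349 UPM in cluster 19, 160 to 208 UPM in microglia, 76.2 to 88.7 UPM in oligodendrocytes, 38.8 to 51.0 UPM in astrocytes and 3.34 to 4.43 UPM in DGCs. Cluster 14 held at most 18.5% of the Wls UMIs of a mouse. In the mutants it stood at 181 to 195 UPM in cluster 14, 42.1 to 98.9 UPM in cluster 19 and 46.4 to 91.8 UPM in microglia, but at 0 to 4.93 UPM in oligodendrocytes and 1.99 to 2.87 UPM in astrocytes. Both mutants were below both controls in 13 of the 18 clusters, overlapped with them in 4 and were above them in 1, the DGCs.

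The share of the control level that was left differed between cell types. It was 38.7% in cluster 14, 2.99% in oligodendrocytes, 5.41% in astrocytes, 21.1% in cluster 19 and 35.6% in inhibitory cluster 5. The difference was tested as an interaction of genotype and cluster in edgeR, with the mouse as a term, for comparisons chosen after these values were seen. The genotype effect on Wls was weaker in cluster 14 than in oligodendrocytes by 2.87 on the log2 scale, with a standard error of 0.50 (edgeR, adjusted p = 7.3e-05 over 9799 genes). Against astrocytes the difference was 2.95 with a standard error of 0.52 (adjusted p = 0.053). Against cluster 19 it was 0.65 with 0.57 (adjusted p = 0.997) and against inhibitory cluster 5 it was 0.07 with 0.30 (adjusted p = 1.00). Against all other nuclei together, which held 37.6% of the control level, it was -0.07 with 0.32 (adjusted p = 1.00). These 3 and the comparison with astrocytes missed the threshold. For Ptgds no such difference passed, and the largest was -1.85 with a standard error of 0.83 against cluster 19 (adjusted p = 0.997), where Ptgds overlapped between genotypes.

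**Figure D4:**
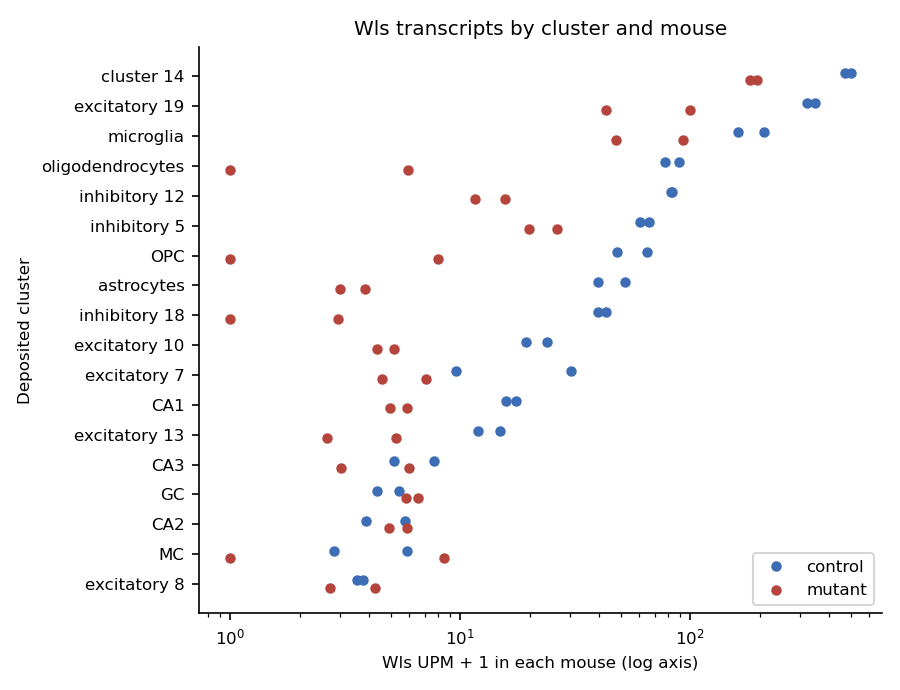
Wls in UPM plus 1 on a log axis in each mouse for the 18 deposited clusters with at least 10 nuclei in every mouse, controls in blue and mutants in red. Cluster 14 is at the top in both genotypes, and the mutant points of oligodendrocytes, astrocytes and OPC lie between 0 and 6.99 UPM while those of cluster 14 lie at 181 and 195 UPM.

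Bulk RNAseq of other mice gave a measure of the leading genes that the clustering had not used. The libraries held 56002381 to 79576196 expected counts. Replicate 2 of both genotypes held Xist at 101 and 175 TPM and Ddx3y at 0.17 and 0.3 TPM, and replicate 1 of both held Xist at 0.35 and 0.12 TPM and Ddx3y at 28.9 and 30.9 TPM, so replicate 2 goes against the stated male sex. Each genotype had 1 library of each kind, and the main bulk fit held no term for this difference. Wls stood at 2.61 and 5.44 TPM in the mutants and 10.5 and 10.1 TPM in the controls, a log2 fold change of -1.31 with a standard error of 0.30 (edgeR, adjusted p = 0.12). Ttr, the main choroid plexus transcript, stood at 1062 and 8761 TPM in the mutants and 154 and 58.1 TPM in the controls, and 12 of the 13 choroid plexus genes were higher in both mutants than in both controls, against 25.8% of all genes (median 3.93 on the log2 scale). In bulk RNA, fewer cells of a type and less RNA per cell cannot be told apart.

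Of the 30 leading genes, 29 were tested in bulk, since AU023762 is not used there. At FC above 3 and FDR below 0.05, 0 were called higher and 0 lower (edgeR), against 0.0193% and 0.198% of 20687 genes. At an unadjusted p below 0.05, 10 were lower and none higher, against 9.94% and 8.86% of all genes, and DESeq2 also called none at the threshold. At FDR below 0.05 alone, 3 were lower, against 1.01% of all genes, and none higher, against 0.198%. Both mutants lay below both controls for 14 of the 29 and above for 2, against 25.4% and 25.8% of all genes. The median log2 fold change was -0.16, against 0.01 over all genes. Between the libraries of replicate 1 it was -0.13 and between those of replicate 2 -0.20.

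The 3 genes at FDR below 0.05 were Ptgds, Cyp26b1 and Slc7a11. Ptgds stood at 181 and 196 CPM (library-scaled counts, after TMM scaling) in the mutants and 281 and 275 CPM in the controls, with a log2 fold change of -0.56 and a standard error of 0.06 (edgeR, adjusted p = 0.028). This call was lost with the replicate number as a block (adjusted p = 0.058), without control mouse 1 (0.22) and without control mouse 2 (0.26). Cyp26b1 stood at 10.8 and 11.0 against 18.8 and 22.0 CPM, with a log2 fold change of -0.90 and a standard error of 0.12 (edgeR, adjusted p = 0.044). Slc7a11 stood at 27.6 and 24.5 against 42.7 and 50.8 CPM, with a log2 fold change of -0.85 and a standard error of 0.11 (edgeR, adjusted p = 0.046). Cyp26b1 and Slc7a11 were not followed singly under the alternatives, so whether their calls would hold is not known. Whether the RNA of these genes in a whole hippocampus came from meninges was not tested, and Ptgds stood at 675 to 1771 UPM in oligodendrocyte nuclei.

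The largest fall among the leading genes was that of Slc6a12, at 0.34 and 0.578 CPM in the mutants and 1.35 and 1.18 CPM in the controls, a log2 fold change of -1.44 with a standard error of 0.35 (edgeR, adjusted p = 0.13). Its neighbour Slc6a13 stood at 2.40 and 3.33 against 7.12 and 7.86 CPM, a log2 fold change of -1.38 with a standard error of 0.20 (edgeR, adjusted p = 0.059). For Slc6a13 the adjusted p was 5.3e-06 in DESeq2 and ranged from 5.3e-06 to 0.41 over all alternatives. Ranbp3l stood at 3.16 and 2.78 against 5.58 and 5.70 CPM (edgeR, log2 fold change -0.93, adjusted p = 0.075). The other large falls, Wnt6 (-1.37), Il31ra (-1.13) and Gm27151 (-0.99), had adjusted p of 0.47, 0.28 and 0.41 in edgeR and rested on at most 0.886 CPM in any library. Slc6a20a stood at 8.68 and 23.1 against 15.5 and 18.2 CPM and did not move in 1 direction, with a value of -0.08 that turned to 0.45 without mutant mouse 1 and to -0.96 (edgeR, adjusted p = 0.020) without mutant mouse 2, the library highest in choroid plexus transcripts.

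Rises were smaller. Slc16a12 had the largest, 0.93 with a standard error of 0.40 (edgeR, adjusted p = 0.30), at 2.89 and 6.58 CPM in the mutants against 2.30 and 2.68 CPM. The next were Cd74 (0.37), Wnt4 (0.33), Dcdc2a (0.19) and Aebp1 (0.08), of which none passed. Outside the leading genes, Slc22a6, the organic anion carrier of the wider meningeal list, was past both thresholds. It stood at 0.85 and 1.08 CPM in the mutants and 3.12 and 3.80 CPM in the controls, with a log2 fold change of -1.83 and a standard error of 0.23 (edgeR, adjusted p = 0.043). It was the only one of the 26 genes of that list to be called, and Cemip, with -1.04 (edgeR, adjusted p = 0.041), was the only other at FDR below 0.05. Neither Slc22a6 nor Cemip was followed singly under the alternatives. The list's median was -0.14, with 8 of its 26 genes lower in both mutants and 2 higher, beside 25.4% and 25.8% of all genes.

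The members that were lower in bulk were not all lower in the nuclei. Cyp26b1 stood at 258 and 171 UPM in the mutant nuclei and 183 and 160 UPM in the controls, and Slc22a6 at 161 and 115 against 136 and 244 UPM, so both overlapped between genotypes. Slc7a11 stood at 1554 and 1413 against 1991 and 2110 UPM, and Ptgds at the values given above, and in both genes the mutants lay below the controls in nuclei and in bulk.

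**Figure D5:**
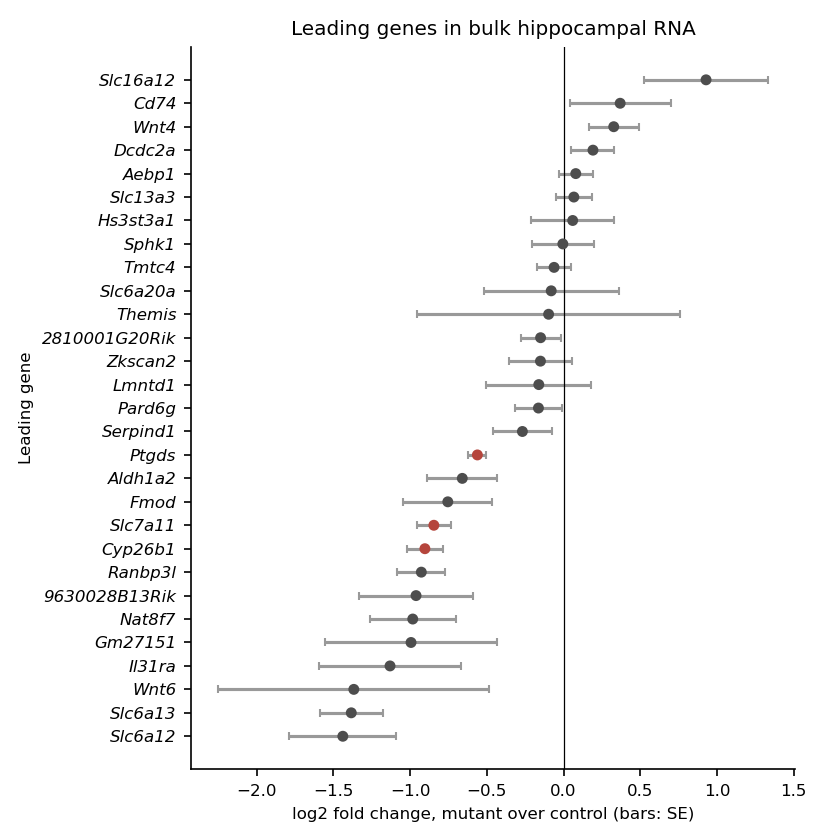
Log2 fold change, mutant over control, of the 29 leading genes tested in bulk RNAseq, ordered by value, with bars for the standard error and red points for FDR below 0.05. Most points lie left of 0, and Ptgds, Slc7a11 and Cyp26b1 are the red points.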

How the data were processed

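For snRNAseq and for bulk RNAseq, 2 mutant mice and 2 control mice were used, grouped by their labels. Per the labels and methods, the authors processed the nuclei in Cell Ranger 3.1.0 on mm10, counting introns, and deposited UMI counts per gene for the nuclei they kept, with their cluster labels from Monocle 3 after batch correction. For bulk RNAseq the authors used RSEM 1.3.0 and Bowtie2 2.2.9 and deposited expected counts and TPM, and a normalized signal per gene, obtained by dividing each library by 1 size factor. All columns were assigned, and 0 columns were left unused for want of a sample.

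UMIs were summed per mouse over the cluster 14 nuclei, and expected counts were rounded. Both were tested with edgeR 4.0.16 in R 4.3.3 (filterByExpr, TMM scaling, quasi-likelihood test, Benjamini-Hochberg over all genes tested), called at FC above 2 for nuclei and FC above 3 for bulk, with FDR below 0.05, as in the study. The per-nucleus regression of the study was replaced because the mouse is the replicate. The absolute log2 fold change divided by the square root of F gave its standard error. DESeq2 1.42.0, and limma 3.58.1 on the log2 of the deposited signal plus 1, were alternatives. Scrublet in scanpy 1.11.5 called doublets, which were kept except in an alternative. Sub-groups are Leiden clusters of the 519 nuclei. Gene positions are from GENCODE on GRCm38.

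Genes were named by rule: the markers, Wls, the leading genes, the lists, and the 5 with the smallest p in each direction where fewer passed. Sub-group genes, Cst3 and Apoe by cluster, and the interaction tests were singled out after their values were seen. The members and lists were chosen with earlier results of these data known. The scripts were tested on simulated data. With 2 mice a genotype, the edgeR p-values set a difference against the spread between these samples, which was estimated partly across genes.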

Additional observations from a re-analysis of the deposited data

Results flagged for a closer look

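The loss of Wls differed between cluster 14 and oligodendrocytes of the same mice, which was marked because the difference itself passed its test. The log2 fold change, mutant over control, was 2.87 higher in cluster 14 (standard error 0.50, edgeR interaction with the mouse as a term, adjusted p = 7.3e-05). In oligodendrocytes the mutant mice held 0 and 4.93 UPM and the controls 76.2 and 88.7 UPM, and in cluster 14 they held 181 and 195 UPM against 499 and 471 UPM. Of the 5 such comparisons of Wls, chosen after these values were seen, this was the only one past the threshold. Against all other nuclei together the difference was -0.07 (standard error 0.32, adjusted p = 1.00), with 37.6% of the control level left there and 38.7% in cluster 14.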

How the results depend on the processing

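Of 179 recomputed values, 133 kept their direction and their side of the threshold, 18 moved, 16 passed a threshold that they had missed, 3 lost it and 9 changed sign. In the nuclei, 0 genes were called in either direction by DESeq2, RLE scaling, the replicate block, FC above 1.5 and each other selection of nuclei. Without the filter on low counts 17 were called higher and 19 lower, and with 1 mouse left out the counts ranged from 0 to 28 higher and from 0 to 21 lower. The cause was not tested. The log2 fold change of the share turned to -0.22 over nuclei other than DGCs, to -0.62 within the inhibitory clusters and to -0.44 with TMM over clusters, and with 1 mouse left out it ranged from -0.30 to 0.68. Ranbp3l in nuclei turned to 0.12 in the 336 nuclei without 3 or more neuronal, vascular, oligodendrocyte lineage or microglial markers, to 0.18 without mutant mouse 2 and to 0.04 without control mouse 2, and with 1 mouse left out it ranged from -0.43 to 0.18. Slc6a20a in bulk turned to 0.45 without mutant mouse 1 and 0.04 without control mouse 2, and with 1 mouse left out it ranged from -0.96 to 0.45.

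For the bulk median of the leading genes, the values were -0.24 with the replicate block, -0.27 in limma on the deposited matrix, -0.27 for 15 genes, -0.10 for 60 genes and -0.088 for genes at 100 CPM or more, and with 1 mouse left out it ranged from -0.44 to -0.24. With 60 genes 1 was called lower, and with 1 mouse left out 0 to 1. The replicate numbers do not mark shared litters or days in the labels, and deviations of same-numbered samples correlated at 0.099 in nuclei and 0.021 in bulk. In bulk the replicate numbers also divide the libraries by Xist and Ddx3y, so the block takes up that difference there. With the replicate block 0 genes were at FDR below 0.05 in nuclei, as without it, and 94 against 250 in bulk. Depth limits what cluster 14 can show, since mutant mouse 1 holds 155107 UMIs in 64 nuclei.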
